A study of Mus musculus with 69 samples.

Results

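The mRNA levels of 9 Kruppel-like factor genes, Klf2, Klf3, Klf4, Klf5, Klf6, Klf7, Klf10, Klf12 and Klf13, were followed through a bulk RNA sequencing study of mouse prostate organoids. The genes were chosen by name, with earlier results of these data known. All 9 had a line in each of the 3 deposited count tables, among 16893, 18799 and 18966 named genes, and all 9 passed the filter on low counts in each table. The study asked how prostate adenocarcinoma organoids take on a neuroendocrine state. It holds 69 libraries of polyA RNA in 23 groups of 3. In the PRAD and NEPC table, organoids labelled PRAD received DMSO, the solvent, or agents labelled ARi, YAPi and NOTCHi, alone, in the pairs ARi_NOTCHi, ARi_YAPi and YAPi_NOTCHi, or as COMBO. These were sampled at day 8, COMBO also at day 42, and stood beside lines labelled NEPC-1, NEPC-2 and NEPC-3, which carry no day. In the genotype table, organoids labelled WT, PtP and TKO received DMSO, YAPi_NOTCHi or COMBO and were sampled at day 8. The TKOM table sets organoids labelled TKOM in Matrigel, a basement membrane gel, with no day given, against TKOM organoids in suspension at day 30. The labels do not spell out the alleles behind PtP, TKO, TKOM, PRAD and NEPC, the compounds and doses of the agents, or the content of COMBO. They also do not say whether the 3 libraries of a group came from separate cultures, so each p-value speaks of the variation among the libraries sequenced, and this may be no more than technical variation.

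Kruppel-like factors are transcription factors that bind GC-rich and CACCC sequences through zinc fingers at the C-terminal end, while their other ends differ and recruit either activators or repressors. KLF3 and KLF12 bind the corepressor CtBP, KLF10 and KLF13 bind SIN3A, and KLF2, KLF4, KLF5, KLF6 and KLF7 mostly act as activators. In epithelia, KLF4 is linked to differentiation and exit from the cell cycle and KLF5 to proliferating basal and progenitor cells, and KLF4, KLF5 and KLF6 have all been studied in the prostate.

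All 9 are protein-coding genes in the GENCODE vM21 annotation of mm10. Klf12 (ENSMUSG00000072294.5) spans chr14:99870632-100284679 on the minus strand, 414048 bases with 5890 bases of exon. Klf5 lies on the same chromosome at chr14:99298691-99315036 on the plus strand. Klf4 (ENSMUSG00000003032.8) spans chr4:55527143-55532466 on the minus strand, 5324 bases in all. The other members are Klf2 at chr8:72319033-72321656 on the plus strand, Klf3 at chr5:64803388-64832901 on the plus strand, Klf6 at chr13:5861482-5870394 on the plus strand, Klf7 at chr1:64029447-64122282 on the minus strand, Klf10 at chr15:38291463-38300706 on the minus strand and Klf13 at chr7:63886351-63938915 on the minus strand.

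The 250 bases before the RefSeq start are shown for Klf12 and Klf4, because Klf12 had the widest range of levels in the PRAD and NEPC table and Klf4 one of the widest in the genotype table. The sequences are from RefSeq, build GRCm38.p6, minus strand, 5′ to 3′. The Klf12 window is chr14:100149797-100150046, inside the longer GENCODE gene, and the Klf4 window is chr4:55532476-55532725. Capitals mark matches, on either strand, to GGAATG (the core that TEAD factors bind, TEAD being the partner of YAP), TGGGAA (RBPJ, the partner of NOTCH), AGAACA (androgen and glucocorticoid receptors) and CACCC (Kruppel-like factors).
Klf12: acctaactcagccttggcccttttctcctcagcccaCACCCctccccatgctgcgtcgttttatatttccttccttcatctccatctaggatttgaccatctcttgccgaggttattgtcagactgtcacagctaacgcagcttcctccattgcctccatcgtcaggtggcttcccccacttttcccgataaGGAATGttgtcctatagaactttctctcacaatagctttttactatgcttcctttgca
Klf4: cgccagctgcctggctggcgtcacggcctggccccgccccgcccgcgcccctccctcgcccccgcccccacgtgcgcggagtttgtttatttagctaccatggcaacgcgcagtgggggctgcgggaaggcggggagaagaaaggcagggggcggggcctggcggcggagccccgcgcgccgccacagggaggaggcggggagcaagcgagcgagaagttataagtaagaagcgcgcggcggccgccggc
A promoter was found for 7 of the 9 members by symbol, and not for Klf5 and Klf10. Klf12 held the only GGAATG among these 7 windows, 58 bases before the start on the plus strand of the sequence as printed, and a CACCC 214 bases before it. Of 32851 RefSeq promoter windows of 250 bases, 12.6% held GGAATG and 52% held CACCC. None of the 7 windows held TGGGAA or AGAACA, which stood in 21.6% and 16.1% of all windows. The GC box GGGCGG, not capitalised, stood in 32.7% of all windows, 4 times in the Klf4 window and not in that of Klf12. GGAATG and TGGGAA can share bases, and neither shared any here. The Klf12 window was 48% G and C and the Klf4 window 74%.

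Library totals ran from 18629462 to 92280307 counts over the 3 tables, and the spread between replicates was small, with a common biological coefficient of variation of 3.63% (TKOM), 3.85% (PRAD and NEPC) and 2.37% (genotype). Every one of the 69 libraries correlated best with a library of its own group. Replicate 2 of the PRAD NOTCHi group stood apart from the others of its group, with a chi-square per degree of freedom of 24.7 and 23.3 against replicates 1 and 3, so results that change without it are given both ways. The luminal markers Krt8, Krt18 and Cd24a summed to between 710.1 and 3867 CPM (counts scaled by library size and TMM factor) over the 23 groups. The basal markers Krt5, Krt14 and Trp63 summed to 8544 to 9095 CPM in PRAD with DMSO and 0.453 to 0.820 CPM in PRAD with COMBO at day 42. The neuroendocrine markers Chga, Syp and Insm1 went the other way, with 0.115 to 0.657 CPM in the first group and 2744 to 2884 CPM in the second. Of the fibroblast markers Col1a1, Col1a2, Dcn and Pdgfra, the 2 with a line in the PRAD and NEPC table summed to 82.1 to 86.7 CPM with DMSO, 1004 to 1039 CPM with ARi_NOTCHi, 1.18 to 1.62 CPM with COMBO at day 42 and under 1 CPM in the NEPC lines. None of the 3 immune markers had a line in the tables. In bulk samples, fewer cells of a type and less RNA per cell cannot be told apart, and the part that cell makeup has in any result below was not tested.

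Set per kilobase of exon, Klf5 and Klf3 were the most abundant members in PRAD organoids with DMSO, at 111.8 and 82.9 CPM per kb, followed by Klf6 at 38.3 and Klf10 at 29.4. Klf4 and Klf13 stood at 13.3 and 13.1 CPM per kb, Klf7 at 3.203, Klf2 at 0.666 and Klf12 at 0.0172. By day 42 of COMBO the members lay closer together, with Klf5 at 32.8, Klf13 at 25.8, Klf3 at 11.3 and Klf12 at 7.10 CPM per kb. In NEPC-2 and NEPC-3 Klf13 was the most abundant member, at 27.3 and 19.5 CPM per kb. WT organoids with DMSO were led by Klf4 at 154 CPM per kb, and TKOM organoids by Klf6, at 46.5 in Matrigel and 27.8 in suspension.

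In PRAD organoids at day 8 each single agent was set against DMSO. With YAPi, 7 of 9 members rose and 1, Klf6, fell, where 61.9% of all genes tested passed, 35% higher and 26.9% lower. With ARi, 2 rose, Klf3 and Klf7, and 2 fell, Klf4 and Klf6, beside 54.5% of all genes, 27.1% higher and 27.4% lower. With NOTCHi, 4 rose and 3 fell, beside 54% of all genes, 26% higher and 28% lower. The members' median log2 fold change was 0.28 with YAPi, against 0.06 for all genes, and -0.07 with ARi and 0.03 with NOTCHi, against 0 and -0.01. A gene passed at an adjusted p under 0.05 in edgeR's quasi-likelihood test with Benjamini-Hochberg adjustment over all genes of its table. All comparisons with DMSO at day 8 share the same 3 DMSO libraries.

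With the pairs, ARi_NOTCHi gave 3 members higher and 5 lower, beside 68.4% of all genes, 35.1% higher and 33.3% lower. ARi_YAPi gave 4 higher and 2 lower, beside 70.2%, 39.7% and 30.5%. YAPi_NOTCHi gave 3 higher, Klf7, Klf12 and Klf13, and 5 lower, Klf3, Klf4, Klf5, Klf6 and Klf10, beside 75.4%, 40.2% and 35.1%. The same split of members was seen with COMBO, at day 8 beside 79.8%, 41.1% and 38.7% of all genes and at day 42 beside 84.5%, 41.2% and 43.3%, all against the same DMSO libraries. At day 42 the members' median log2 fold change was -0.94 against -0.03 for all genes. PRAD organoids had no DMSO group at day 42. In every comparison of COMBO at day 42 with DMSO, here and below, treatment and day cannot be told apart. Since most genes passed in these comparisons, the number of members that passed is close to the background, and the sizes and directions of single members carry the description.

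**Figure D1:**
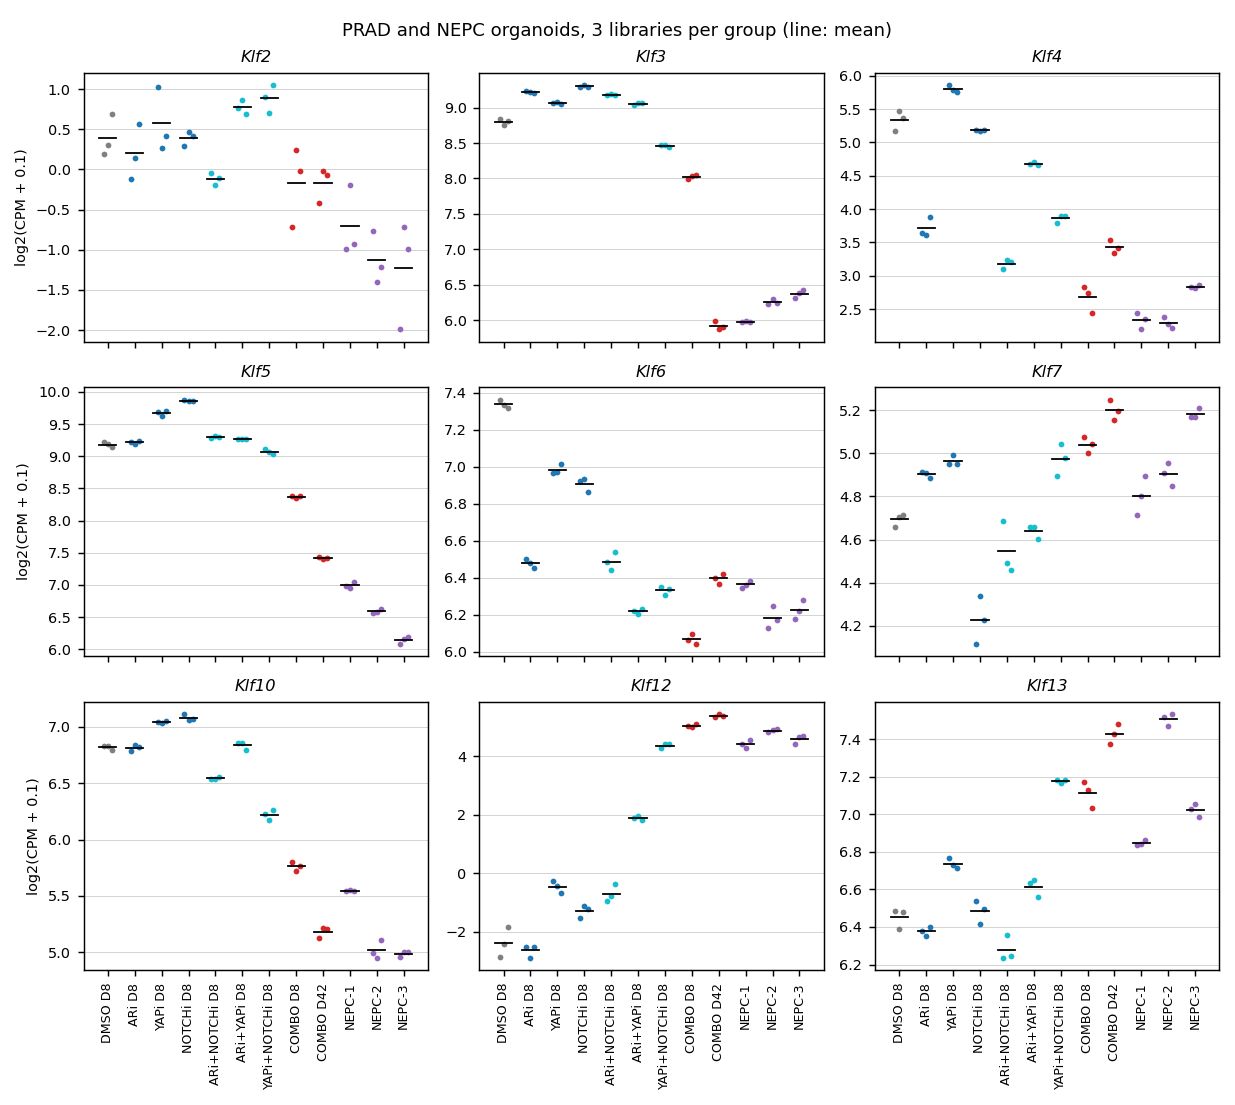
Each panel shows 1 Kruppel-like factor gene in the 12 groups of the PRAD and NEPC table; the vertical axis is log2 of CPM plus 0.1, points are libraries and lines are group means. Klf12 climbs from DMSO to COMBO and stays high in the NEPC lines, while Klf3, Klf5 and Klf10 step down through COMBO at day 8 to their lowest levels at day 42 and in the NEPC lines.

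Klf12, known for repressing the AP-2 alpha gene, was nearly silent with DMSO and high with COMBO. The 3 DMSO libraries held 0.0384, 0.0876 and 0.178 CPM, from only 7 counts in all, and the 3 ARi libraries 0.0749, 0.0346 and 0.0748 CPM, from 5 counts, and Klf12 passed the filter on low counts through the groups where it was high. With YAPi the libraries held 0.727, 0.637 and 0.518 CPM, with NOTCHi 0.249, 0.360 and 0.330 CPM and with ARi_NOTCHi 0.415, 0.487 and 0.670 CPM. These groups did not overlap the DMSO libraries, but their counts were low, 77, 21 and 39 in all. ARi_YAPi gave 3.57, 3.79 and 3.47 CPM and YAPi_NOTCHi 19.3, 21.2 and 21.2 CPM. COMBO gave 32.3, 31.8 and 34.3 CPM at day 8 and 40.8, 43.6 and 40.97 CPM at day 42. Every library with ARi_YAPi, YAPi_NOTCHi or COMBO was above every library with DMSO, a single agent or ARi_NOTCHi, and COMBO at day 42 was the highest group.

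Against DMSO, the Klf12 log2 fold change was 2.70 ± 0.41 (SE, adjusted p = 2.31e-07) with YAPi, 5.14 ± 0.28 (SE, adjusted p = 5.53e-20) with ARi_YAPi, 7.65 ± 0.19 (SE, adjusted p = 1.53e-32) with YAPi_NOTCHi and 8.32 ± 0.17 (SE, adjusted p = 1.47e-35) with COMBO at day 8. DMSO held only 7 counts in all, and Klf12 passed the filter through the groups where it was high. The adjusted p values against DMSO, here and for the NEPC lines, are therefore not read as support. The log2 fold changes themselves moved with single libraries. Without replicate 3 of every group these values became 3.43, 5.81, 8.27 and 8.93, and YAPi alone came to 2.09 without replicate 1. For YAPi, NOTCHi, ARi_NOTCHi and ARi, whose groups also held few counts, the fitted Klf12 changes are not read as results. They do enter the counts of members above. At day 42 of COMBO the difference from DMSO was 8.67 ± 0.17 (SE, adjusted p = 3.39e-37), or 9.33 without replicate 3.

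The Klf12 interaction terms rest on the DMSO and ARi libraries, with 7 and 5 counts in all, and are not read as results. COMBO against YAPi_NOTCHi, where every library held at least 558 counts of Klf12, gave a further 0.68 ± 0.07 (SE, adjusted p = 4.15e-11), and day 42 against day 8 of COMBO 0.35 ± 0.07 (SE, adjusted p = 7.79e-06).

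The 3 NEPC lines held Klf12 below COMBO at day 42 and far above DMSO. NEPC-1 held 21.1, 19.5 and 23.5 CPM, NEPC-2 27.999, 29.7 and 30.2 CPM and NEPC-3 21.3, 25.002 and 25.6 CPM. Their mean differed from PRAD with DMSO by 7.91 ± 0.17 (SE, adjusted p = 1.17e-35), or 8.51 without replicate 3, and from COMBO at day 42 by -0.76 ± 0.05 (SE, adjusted p = 1.19e-16). NEPC-2 lay above NEPC-1 in every library, by 0.45 ± 0.07 (SE, adjusted p = 3.04e-07). NEPC-1 and NEPC-3 overlapped, and their difference of 0.16 ± 0.07 (SE, adjusted p = 0.0410) did not pass without replicate 2 (0.07, adjusted p = 0.551) or without replicate 3 (0.19, adjusted p = 0.0700).

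Klf3, the other member that binds CtBP, fell with YAPi_NOTCHi and COMBO and rose with the other agents and pairs. Klf12 was above DMSO with YAPi_NOTCHi and COMBO, but also with ARi_YAPi, where Klf3 rose too. It stood at 459, 433 and 447 CPM with DMSO and rose with each single agent, to 603, 596 and 590.3 CPM with ARi, 533, 543 and 531 CPM with YAPi and 628, 636 and 628 CPM with NOTCHi. None of these libraries overlapped DMSO. The log2 fold changes were 0.42 ± 0.03 (SE, adjusted p = 2.32e-17), 0.26 ± 0.03 (SE, adjusted p = 1.86e-11) and 0.50 ± 0.03 (SE, adjusted p = 7.28e-20) in that order. It also rose with ARi_NOTCHi (0.38 ± 0.03, adjusted p = 1.74e-16) and ARi_YAPi (0.26 ± 0.03, adjusted p = 3.30e-11). Klf3 fell with YAPi_NOTCHi to 355, 354 and 347 CPM (-0.34 ± 0.03, adjusted p = 6.27e-15) and with COMBO to 255, 262 and 263 CPM at day 8 (-0.78 ± 0.03, adjusted p = 2.84e-27). At day 42 of COMBO it held 63.6, 58.3 and 59.9 CPM, every library far under those of day 8. The change from DMSO to day 42 was -2.88 ± 0.03 (SE, adjusted p = 7.95e-47) and that from day 8 to day 42 -2.10 ± 0.03 (SE, adjusted p = 2.52e-41). The change with YAPi and NOTCHi together differed from the sum of their separate effects by -1.10 ± 0.04 (SE, adjusted p = 9.13e-27). NEPC-1 at 62.8 ± 0.202 CPM (SD, n = 3) overlapped COMBO at day 42, and NEPC-2 and NEPC-3 lay above it, at means of 76.2 and 82.9 CPM.

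Klf10, which TGF-beta induces early and which represses Smad7, followed Klf3 in outline with YAPi, NOTCHi, YAPi_NOTCHi and COMBO. Where Klf3 rose with ARi_NOTCHi, Klf10 fell (-0.28 ± 0.03, adjusted p = 1.95e-09). With ARi and ARi_YAPi, which also raised Klf3, Klf10 overlapped DMSO. Its libraries held 113, 114 and 111 CPM with DMSO, 132, 131 and 133 CPM with YAPi and 139, 134 and 134 CPM with NOTCHi, and these last groups lay above DMSO in every library. The log2 fold changes were 0.22 ± 0.03 (SE, adjusted p = 1.43e-07) and 0.26 ± 0.03 (SE, adjusted p = 6.41e-09), and ARi did not pass (adjusted p = 0.982). Klf10 fell with YAPi_NOTCHi to 74.6, 72.2 and 76.9 CPM (-0.60 ± 0.03, adjusted p = 2.01e-19), with COMBO to 55.5, 52.7 and 54.2 CPM at day 8 (-1.06 ± 0.04, adjusted p = 3.20e-28) and to 34.7, 36.97 and 36.7 CPM at day 42 (-1.64 ± 0.04, adjusted p = 6.98e-35). The groups stepped down without overlap. NEPC-1 stood higher, at 46.4, 46.7 and 46.5 CPM, than NEPC-2 and NEPC-3, at means of 32.3 and 31.6 CPM, which overlapped each other.

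Klf13, known as an activator of Ccl5 in T cells, was the member besides Klf12 and Klf7 that was higher at the end of the series than at its start. DMSO libraries held 89.4, 83.6 and 89.2 CPM and ARi and NOTCHi libraries overlapped them (adjusted p = 0.114 and 0.49996). YAPi raised it to 109, 106 and 105 CPM (0.29 ± 0.04, adjusted p = 1.30e-08) and YAPi_NOTCHi to 145, 144 and 145 CPM (0.73 ± 0.04, adjusted p = 5.85e-21). YAPi_NOTCHi lay above every single agent. COMBO did not differ from YAPi_NOTCHi beyond the spread (adjusted p = 0.145) and held 144, 140.1 and 131 CPM at day 8 and 166, 172 and 178 CPM at day 42. Among the NEPC lines, NEPC-2 was the highest at 183, 177 and 185 CPM, above NEPC-1 at 114, 114 and 116 CPM by 0.66 ± 0.04 (SE, adjusted p = 7.87e-20), and NEPC-3 lay between.

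Klf4, which activates the cell cycle inhibitor gene Cdkn1a and promotes epithelial differentiation, fell with ARi by more than any other member that passed. Its libraries held 35.8, 44.3 and 41.2 CPM with DMSO and 12.4, 12.1 and 14.7 CPM with ARi, with no overlap (-1.63 ± 0.07, adjusted p = 2.38e-22). YAPi raised it to 57.7, 54.9 and 54.1 CPM (0.47 ± 0.06, adjusted p = 3.35e-08). NOTCHi libraries, at 36.3, 36.02 and 36.2 CPM, overlapped DMSO; the difference of -0.16 ± 0.07 (SE, adjusted p = 0.0476) did not pass without NOTCHi replicate 2 (-0.15, adjusted p = 0.0932), nor in DESeq2 (-0.10, adjusted p = 0.252). With ARi_NOTCHi Klf4 fell to 8.51, 9.33 and 9.11 CPM (-2.17 ± 0.08, adjusted p = 2.81e-26) and with YAPi_NOTCHi to 13.8, 14.9 and 14.8 CPM (-1.48 ± 0.07, adjusted p = 8.89e-22). YAPi and NOTCHi together lowered Klf4 by more than the sum of their separate effects, with a difference of -1.78 ± 0.10 (SE, adjusted p = 8.40e-20). With ARi and YAPi the difference from the sum was positive, 0.50 ± 0.10 (SE, adjusted p = 7.38e-05), and ARi_YAPi held 25.5, 25.97 and 25.1 CPM, between ARi and DMSO.

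With COMBO, Klf4 held 7.03, 6.59 and 5.36 CPM at day 8 and 11.5, 10.004 and 10.6 CPM at day 42. Day 42 lay above day 8 in every library (0.77 ± 0.09, adjusted p = 7.30e-10) and below DMSO (-1.92 ± 0.08, adjusted p = 1.00e-25). The NEPC lines held means of 4.95 ± 0.444 CPM in NEPC-1, 4.81 ± 0.282 CPM in NEPC-2 and 7.04 ± 0.146 CPM in NEPC-3 (SD, n = 3 each). NEPC-3 lay above the other lines in every library, by 0.51 ± 0.10 (SE, adjusted p = 3.75e-05) over NEPC-1 and 0.55 ± 0.10 (SE, adjusted p = 9.42e-06) over NEPC-2. NEPC-1 and NEPC-2 overlapped, with a difference of -0.04 (adjusted p = 0.767).

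Klf5 had the widest range of group means after Klf12, 13.2-fold from the lowest to the highest. Its libraries held 597, 582 and 565 CPM with DMSO, 829, 787 and 832 CPM with YAPi and 943, 930.1 and 925 CPM with NOTCHi. NOTCHi was the highest of the 12 groups and none of its libraries overlapped another group; the log2 fold changes were 0.49 ± 0.03 (SE, adjusted p = 9.51e-20) and 0.68 ± 0.03 (SE, adjusted p = 1.36e-24). ARi did not pass (adjusted p = 0.316), and ARi_YAPi rose by only 0.08 (adjusted p = 0.00604), which did not pass without replicate 2 (0.08, adjusted p = 0.0551) or replicate 3 (0.06, adjusted p = 0.0910). YAPi_NOTCHi held 552, 538 and 522 CPM, -1.28 ± 0.04 (SE, adjusted p = 3.96e-29) from the sum of the separate effects. Klf5 then fell to 333, 327 and 333 CPM with COMBO at day 8 (-0.81 ± 0.03, adjusted p = 5.56e-28) and 173, 169 and 170.2 CPM at day 42 (-1.77 ± 0.03, adjusted p = 2.61e-40). The NEPC lines were lower still and in order without overlap, at 126, 124 and 132 CPM in NEPC-1, 94.8, 95.8 and 98.8 CPM in NEPC-2 and 67.9, 71.2 and 73.3 CPM in NEPC-3. Beside this, the summed basal markers were 14006 to 14287 CPM with NOTCHi and 4340.1 to 4495 CPM with COMBO at day 8. In NEPC-3 they were 0.379 to 0.607 CPM. The 2 did not run in parallel throughout. With ARi_NOTCHi the basal sum was 14920 to 15103 CPM, above NOTCHi, while the Klf5 mean was 629 CPM. The basal sum was 5.31 to 6.39 CPM in NEPC-2 and 0.905 to 2.18 CPM in NEPC-1, where Klf5 was higher. The part of the basal markers in the Klf5 levels was not tested.

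Klf6, studied as a tumour suppressor in human prostate cancer, had its highest group mean with DMSO and a lower one in all 11 other groups. DMSO libraries held 164, 161 and 159.6 CPM, against 125, 125 and 129 CPM with YAPi, 121, 122 and 116 CPM with NOTCHi and 90.5, 89.0 and 87.4 CPM with ARi. No library of those groups reached the DMSO level. The log2 fold changes were -0.36 ± 0.03 (SE, adjusted p = 6.58e-13), -0.43 ± 0.03 (SE, adjusted p = 5.46e-15) and -0.86 ± 0.03 (SE, adjusted p = 6.01e-25). COMBO at day 8 was the lowest group at 66.8, 68.2 and 65.9 CPM (-1.27 ± 0.03, adjusted p = 7.82e-32), and day 42 lay above it at 84.3, 82.4 and 85.6 CPM (0.33 ± 0.03, adjusted p = 2.04e-11). The NEPC lines held between 69.8 and 83.4 CPM.

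Klf7, known for its part in developing neurons, moved the least among the members. Its group means ran from 18.7 CPM with NOTCHi to 36.7 CPM with COMBO at day 42. NOTCHi libraries held 17.3, 20.1 and 18.6 CPM, all below the DMSO libraries at 25.2, 26.02 and 26.2 CPM (-0.47 ± 0.06, adjusted p = 1.24e-08). YAPi raised it by 0.27 ± 0.06 (SE, adjusted p = 4.59e-05) and YAPi_NOTCHi by 0.28 ± 0.06 (SE, adjusted p = 2.10e-05). COMBO at day 42 stood above DMSO by 0.51 ± 0.06 (SE, adjusted p = 3.22e-11). The change of -0.15 with ARi_NOTCHi (adjusted p = 0.0275) did not pass without replicate 2 (-0.11, adjusted p = 0.222) or replicate 3 (-0.09, adjusted p = 0.325).

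Klf2, a flow-induced regulator of endothelial cells, was low throughout the PRAD and NEPC table. DMSO libraries held 1.04, 1.14 and 1.52 CPM and no single agent or pair differed from them at an adjusted p under 0.05. COMBO at day 8 lay below YAPi_NOTCHi, at 0.510, 1.08 and 0.889 against 1.76, 1.53 and 1.96 CPM (-1.07 ± 0.29, adjusted p = 0.00262). The mean of the NEPC lines was lower than DMSO, with a log2 difference of -1.57 ± 0.27 (SE, adjusted p = 1.34e-06) and library values from 0.151 CPM in NEPC-3 to 0.775 CPM in NEPC-1. The endothelial markers Cdh5 and Kdr were at 0 in the DMSO, YAPi, NOTCHi and ARi_NOTCHi libraries and summed to at most 2.70 to 3.35 CPM, in NEPC-1.

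Seen over all 9, the NEPC lines differed from PRAD with DMSO in every member, with 3 higher and 6 lower, beside 85.9% of all genes, 42% higher and 43.8% lower. Against COMBO at day 42 the lines differed by a median log2 fold change of -0.30 over the members against 0.02 over all genes. In that comparison 7 members were lower and 1, Klf3, was higher (0.28 ± 0.03, adjusted p = 2.97e-12), beside 64.9% of all genes, 33.2% higher and 31.7% lower. The lower call of Klf2, -0.95 ± 0.28 (SE, adjusted p = 0.00295), did not pass without replicate 3 (-0.87, adjusted p = 0.0520). From day 8 to day 42 of COMBO, 5 members rose and 3 fell, beside 69.8% of all genes, 34.9% higher and 34.8% lower. Between the lines themselves, 3 and 3 members were higher and lower in NEPC-2 than in NEPC-1 (28.3% and 29.1% of all genes, 57.4% in either direction), 5 and 3 in NEPC-3 than in NEPC-1 (25.7% and 32.4%, 58.1%), and 3 and 3 in NEPC-3 than in NEPC-2 (27.5% and 33.5%, 61.1%). No member differed by 2-fold between any 2 lines.

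In the interaction terms, YAPi with NOTCHi departed from the sum of the separate effects in 3 members upward, Klf7, Klf13 and the low-count term of Klf12, and 5 downward, beside 59% of all genes, 28.2% up and 30.8% down. ARi with YAPi departed upward in 2, Klf4 and the low-count term of Klf12, and downward in 4, beside 36.6%, 19.2% and 17.4%. ARi with NOTCHi departed upward in 1, Klf6, and downward in 4, Klf3, Klf4, Klf5 and Klf10, beside 39.3%, 18.7% and 20.6%. In this last term 47.6% of all calls were upward, against 35.7% with the size factors of DESeq2 in edgeR and 36.03% in DESeq2 itself. Klf13 there was -0.13 (adjusted p = 0.0590) and passed without NOTCHi replicate 2 (-0.16, adjusted p = 0.0245). It also passed with the DESeq2 size factors in edgeR (-0.20, adjusted p = 0.00267) and in DESeq2 (-0.20, adjusted p = 0.00149). The same held with no filter (-0.14, adjusted p = 0.0489) and without replicate 2 of every group (-0.19, adjusted p = 0.0433). The Klf4 call of -0.38 ± 0.11 (SE, adjusted p = 0.00540) did not pass without replicate 1 (-0.30, adjusted p = 0.0653) or replicate 3 (-0.32, adjusted p = 0.0866). COMBO against YAPi_NOTCHi gave 1 member higher, Klf12, and 6 lower, beside 42.4% of all genes, 20.6% higher and 21.9% lower.

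**Figure D2:**
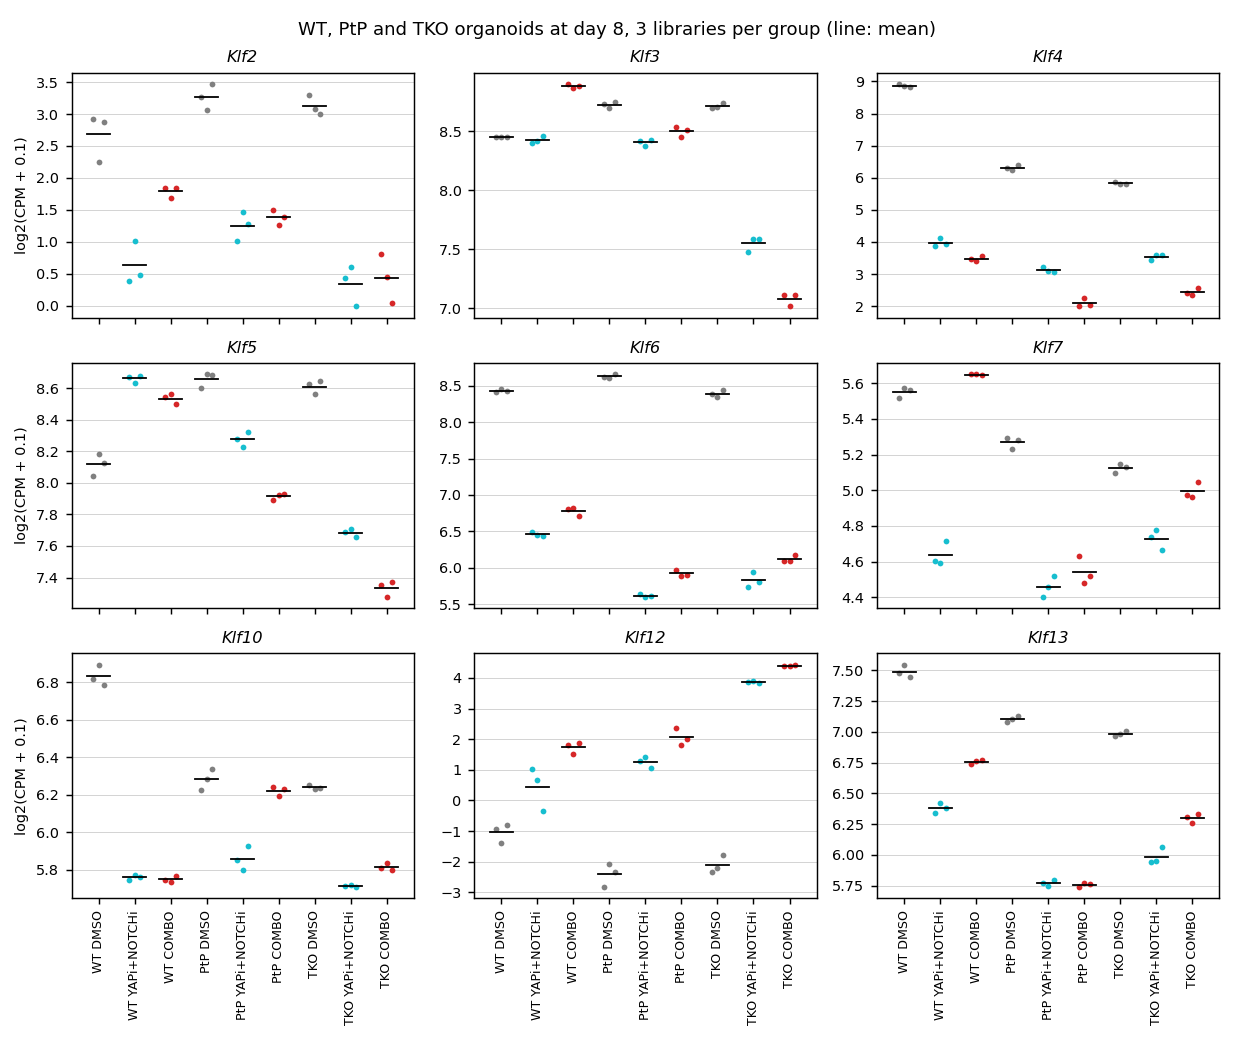
Each panel shows 1 Kruppel-like factor gene in the WT, PtP and TKO organoids at day 8; the vertical axis is log2 of CPM plus 0.1, points are libraries and lines are group means. Klf4 stands highest in WT with DMSO and is low in every treated group, Klf12 rises with treatment in each genotype and reaches its highest level in TKO, and Klf3 falls furthest in TKO.

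In the genotype table, Klf4 set WT apart. With DMSO it held 480.5, 460.3 and 456 CPM in WT, 79.0, 75.1 and 83.6 CPM in PtP and 57.9, 55.9 and 55.9 CPM in TKO. The 3 genotypes did not overlap. PtP lay -2.56 ± 0.04 (SE, adjusted p = 3.52e-41) from WT, and TKO -0.49 ± 0.04 (SE, adjusted p = 2.16e-12) from PtP. All 9 members, Klf12 at few counts among them, differed between PtP and WT, 4 higher and 5 lower, beside 60.9% of all genes, 30.1% higher and 30.8% lower. Klf2, Klf3, Klf5 and Klf6 were the higher ones, by 0.58, 0.27, 0.54 and 0.20 on the log2 scale. Between TKO and PtP only 4 passed, all lower, beside 26.6% of all genes and 13.4% lower; apart from Klf4 these were Klf6 (-0.24), Klf7 (-0.14) and Klf13 (-0.12). The Klf7 call did not pass without replicate 1 (-0.11, adjusted p = 0.165) or replicate 3 (-0.14, adjusted p = 0.0774). Beside the Klf4 levels, the summed basal markers were 14580.1 to 14817 CPM in WT, 5528 to 5641 CPM in PtP and 4820.1 to 4828 CPM in TKO with DMSO. The luminal markers ran the other way, at 1767 to 1811 CPM in WT, 3519 to 3578 CPM in PtP and 3506 to 3508 CPM in TKO. In WT with COMBO the basal sum was 5727 to 5916 CPM, above PtP with DMSO, while the Klf4 mean was only 11.1 CPM. The part of these markers was not tested.

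Treatment lowered Klf4 in every genotype. YAPi_NOTCHi libraries held 14.6, 17.2 and 15.4 CPM in WT, 9.21, 8.40 and 8.25 CPM in PtP and 10.7, 11.9 and 12.1 CPM in TKO. COMBO libraries held 10.97, 10.6 and 11.7 CPM in WT, 3.87, 4.70 and 3.99 CPM in PtP and 5.25, 5.04 and 5.80 CPM in TKO. No treated library overlapped DMSO of its genotype, and COMBO lay below YAPi_NOTCHi in each. The log2 fold changes with COMBO were -5.39 ± 0.05 (SE, adjusted p = 2.28e-49) in WT, -4.26 ± 0.06 (SE, adjusted p = 1.51e-40) in PtP and -3.41 ± 0.06 (SE, adjusted p = 5.95e-39) in TKO. The genotypes started from different levels, and with COMBO the 3 means were 11.1, 4.19 and 5.36 CPM.

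Klf12 rose with treatment in all 3 genotypes, and TKO reached the highest levels. With DMSO it held 0.421, 0.283 and 0.476 CPM in WT, 0.0420, 0.140 and 0.0977 CPM in PtP and 0.0981, 0.116 and 0.192 CPM in TKO, from 22, 6 and 10 counts in all. With YAPi_NOTCHi it held 1.94, 1.49 and 0.696 CPM in WT, 2.34, 2.60 and 2.01 CPM in PtP and 14.4, 14.7 and 14.3 CPM in TKO. All of these treated libraries lay above the DMSO libraries of their genotype. With COMBO it held 3.39, 2.77 and 3.60 CPM in WT, 5.10, 3.39 and 3.95 CPM in PtP and 20.7, 20.7 and 21.6 CPM in TKO. TKO with COMBO was the highest of the 9 groups. TKO lay above PtP and WT with either treatment, while PtP and WT overlapped with COMBO. The log2 fold changes with COMBO were 3.06 ± 0.28 (SE, adjusted p = 5.77e-13), 5.50 ± 0.34 (SE, adjusted p = 1.46e-18) and 7.26 ± 0.21 (SE, adjusted p = 1.56e-30), and that in PtP was 4.88 without replicate 1. The DMSO levels rest on so few counts that differences between genotypes at DMSO, or in the change from DMSO, are not read as results for Klf12. For the same reason the adjusted p values of Klf12 against DMSO are not read as support. Beside these levels the summed neuroendocrine markers with COMBO were 221 to 243 CPM in WT, 330.3 to 336 CPM in PtP and 828 to 894 CPM in TKO.

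Klf3 and Klf5 moved up in WT and down in PtP and TKO with COMBO. Klf3 with DMSO held 349.7, 349 and 349 CPM in WT, 424, 414 and 428 CPM in PtP and 414, 417 and 428 CPM in TKO. COMBO took it up to 476, 465 and 473 CPM in WT and down to 371, 350.4 and 363 CPM in PtP and 138, 129 and 138 CPM in TKO. WT moved one way and PtP and TKO the other, without overlap with DMSO: the log2 fold changes were 0.43 ± 0.03 (SE, adjusted p = 1.27e-18), -0.22 ± 0.03 (SE, adjusted p = 4.30e-10) and -1.63 ± 0.03 (SE, adjusted p = 7.95e-39). With YAPi_NOTCHi, Klf3 in WT overlapped DMSO (-0.02, adjusted p = 0.429) and also overlapped PtP, where it fell (-0.32 ± 0.03, adjusted p = 2.49e-14), and it fell in TKO (-1.16 ± 0.03, adjusted p = 2.09e-33). For Klf5 the comparison with COMBO read 0.41 ± 0.03 (SE, adjusted p = 4.57e-16) in WT, -0.74 ± 0.03 (SE, adjusted p = 6.89e-25) in PtP and -1.27 ± 0.03 (SE, adjusted p = 2.60e-33) in TKO. Its libraries held 264, 290.3 and 279.7 CPM in WT with DMSO and 373, 378 and 361 CPM with COMBO, against 395, 377 and 399.7 CPM and 164, 155 and 166 CPM in TKO, so the groups moved in opposite directions. The differences between genotypes were themselves tested for Klf5, and its log2 change with COMBO was -1.16 ± 0.04 (SE, adjusted p = 2.03e-25) in PtP minus WT and -0.53 ± 0.04 (SE, adjusted p = 3.11e-14) in TKO minus PtP.

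Klf6 and Klf13 fell in every treated group of this table. Klf6 held 340.5, 351 and 343 CPM in WT with DMSO and 111.9, 113 and 104 CPM with COMBO. In PtP it held 393, 390.0 and 402 CPM with DMSO and 62.5, 59.5 and 59.9 CPM with COMBO, and in TKO 333, 323 and 348 CPM and 68.6, 68.5 and 72.6 CPM. The groups were far apart in each genotype, with log2 fold changes of -1.65 ± 0.03 (SE, adjusted p = 5.08e-36), -2.70 ± 0.03 (SE, adjusted p = 5.52e-43) and -2.26 ± 0.03 (SE, adjusted p = 3.86e-41). Klf13 held 178, 187 and 175 CPM in WT with DMSO and 107, 108 and 109 CPM with COMBO, and in PtP 135, 137 and 139.9 CPM and 53.4, 54.4 and 54.0 CPM. TKO held 125, 126 and 129 CPM with DMSO and 79.2, 76.4 and 80.4 CPM with COMBO. The Klf13 log2 fold changes with COMBO were -0.74 ± 0.03 in WT, -1.35 ± 0.03 in PtP and -0.69 ± 0.03 in TKO (SE; adjusted p = 8.86e-25, 4.96e-33 and 9.96e-24), where the PRAD table gave 0.66. The tables were fitted separately, and the difference between them was not tested.

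Klf10, Klf7 and Klf2 varied by genotype. Klf10 with COMBO fell in WT from 113, 119 and 110.3 to 53.6, 53.3 and 54.4 CPM (-1.09 ± 0.03, adjusted p = 5.53e-29) and in TKO (-0.43 ± 0.03, adjusted p = 1.58e-15), while in PtP the libraries overlapped DMSO (adjusted p = 0.0848). Klf7 with COMBO fell in PtP from 39.1, 37.4 and 38.7 to 24.7, 22.2 and 22.9 CPM (-0.71 ± 0.05, adjusted p = 5.72e-18). In WT the change of 0.10 (adjusted p = 0.0287) did not pass without replicate 1 (0.08, adjusted p = 0.159). In TKO the change of -0.14 (adjusted p = 0.00213) did not pass without replicate 2 (-0.09, adjusted p = 0.106). That TKO change also did not pass in DESeq2 (-0.07, adjusted p = 0.200) or with the DESeq2 size factors in edgeR (-0.07, adjusted p = 0.113). Klf2 was higher in this table than in PRAD with DMSO, at 7.47, 4.67 and 7.26 CPM in WT, 9.58, 8.30 and 10.9 CPM in PtP and 9.71, 8.37 and 7.87 CPM in TKO; that level across tables was not tested. COMBO lowered Klf2 in each, with log2 fold changes of -0.93 ± 0.17 (SE, adjusted p = 2.70e-06), -1.91 ± 0.15 (SE, adjusted p = 8.21e-15) and -2.58 ± 0.16 (SE, adjusted p = 7.60e-19), and no treated library overlapped DMSO of its genotype.

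By counts, COMBO gave 4 members higher and 5 lower in WT, 1 and 7 in PtP and 1 and 8 in TKO. Of all genes tested, 44.9% were higher and 40.8% lower in WT (85.8% in either direction), 44.8% and 40.2% in PtP (85%) and 46.2% and 41% in TKO (87.1%). YAPi_NOTCHi gave 2 higher and 6 lower in WT, 1 and 8 in PtP and 1 and 8 in TKO. Of all genes these were 45.5% and 40.2% (85.7%), 44.9% and 40.6% (85.5%) and 45.7% and 40.6% (86.3%). The members' median with COMBO was -0.74, -0.74 and -1.27, against 0.09, 0.07 and 0.08 for all genes. In PtP and TKO with either treatment, Klf12 was the only member that rose.

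The change with YAPi_NOTCHi differed between PtP and WT in 3 members upward and 4 downward (27% and 30.4% of all genes, 57.4% in either direction), and between TKO and PtP in 4 and 3 (24.2% and 28.4%, 52.6%). For COMBO these counts were 3 and 6 between PtP and WT (29.4% and 30.4%, 59.8%) and 4 and 4 between TKO and PtP (25.7% and 31.2%, 56.9%). The largest of these differences that passed between TKO and PtP was that of Klf3 with COMBO, at -1.41 ± 0.04 (SE, adjusted p = 2.37e-30).

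COMBO against YAPi_NOTCHi within a genotype gave 6 members higher and 2 lower in WT (34.4% and 28.3% of all genes, 62.7% in either direction), 4 and 2 in PtP (34.4% and 25.4%, 59.8%) and 5 and 3 in TKO (37.4% and 27.6%, 65%). In WT, Klf7 rose from 24.2, 24.03 and 26.2 CPM with YAPi_NOTCHi to 50.1, 50.1 and 49.95 CPM with COMBO (1.02 ± 0.04, adjusted p = 1.22e-23) and Klf2 from 1.21, 1.92 and 1.30 to 3.47, 3.12 and 3.48 CPM (1.10 ± 0.20, adjusted p = 7.76e-06). Neither pair of groups overlapped. Klf4 was lower with COMBO in each genotype, with log2 fold changes of -0.53, -1.05 and -1.12, and Klf12 higher in each, by 1.203, 0.86 and 0.54 (adjusted p = 3.37e-07, 6.21e-06 and 4.94e-07). In TKO the Klf10 rise of 0.10 (adjusted p = 0.00959) did not pass without replicate 1 (0.11, adjusted p = 0.0598) or replicate 2 (0.09, adjusted p = 0.0715).

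**Figure D3:**
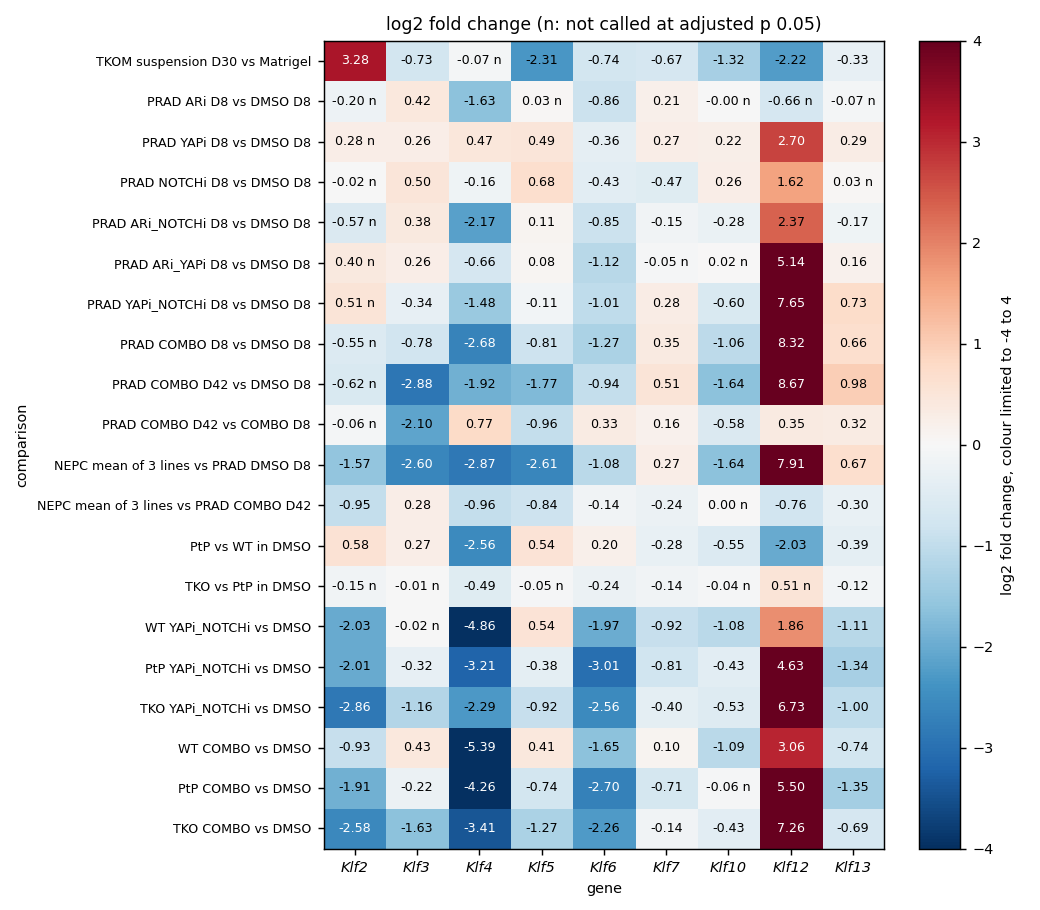
Log2 fold changes of the 9 members (columns) in 20 of the comparisons (rows), with the value written in each cell and n marking those that did not pass. Red is higher and blue is lower, with the colour scale ending at 4 and -4; Klf12 is the column of high positive values under combined treatment and Klf13 has opposite signs in the PRAD and the genotype rows for YAPi_NOTCHi and COMBO against DMSO.

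TKOM organoids in suspension at day 30 showed their largest difference from those in Matrigel, among the members, in Klf2. It held 1.22, 1.32 and 1.27 CPM in Matrigel and 12.9, 11.6 and 12.5 CPM in suspension. The groups were far apart, with a log2 fold change of 3.28 ± 0.13 (SE, adjusted p = 1.61e-13), or 9.70-fold. Klf2 was the only member that rose, and 7 fell, beside 77.2% of all genes tested, 38.3% higher and 38.9% lower. Pecam1, the 1 of the 3 endothelial markers with a line in this table, held 0.239 to 0.406 CPM in Matrigel and 12.5 to 13.05 CPM in suspension, and its part in the Klf2 level was not tested.

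Klf5 fell in suspension from 198, 199 and 201 to 40.1, 40.6 and 39.7 CPM (-2.31 ± 0.03, adjusted p = 1.72e-19). Klf12 fell as well, from 2.36, 3.06 and 2.70 to 0.515, 0.374 and 0.842 CPM (-2.22 ± 0.26, adjusted p = 6.54e-07), where treatment in the other tables raised it; the tables were not compared by a test. Klf10 fell from 65.6, 65.6 and 63.3 to 27.2, 24.8 and 26.1 CPM (-1.32 ± 0.05, adjusted p = 3.42e-14), and the log2 fold changes of Klf3, Klf6, Klf7 and Klf13, which also fell, were -0.73, -0.74, -0.67 and -0.33. None of these groups overlapped. Klf4, at 36.6, 31.5 and 35.9 CPM in Matrigel and 32.4, 33.2 and 33.3 CPM in suspension, overlapped and did not pass (-0.07, adjusted p = 0.230), although it passed without replicate 2 (-0.14, adjusted p = 0.0499). Over the members the median was -0.73 against -0.0044 for all genes. Summed basal markers held 2023 to 2196 CPM in Matrigel and 27.5 to 31.9 CPM in suspension, with Trp63 at 0 in suspension, and Insm1, the only neuroendocrine marker with a line, held 0.0322 to 0.152 CPM and 21.95 to 23.2 CPM; their part was not tested.

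**Figure D4:**
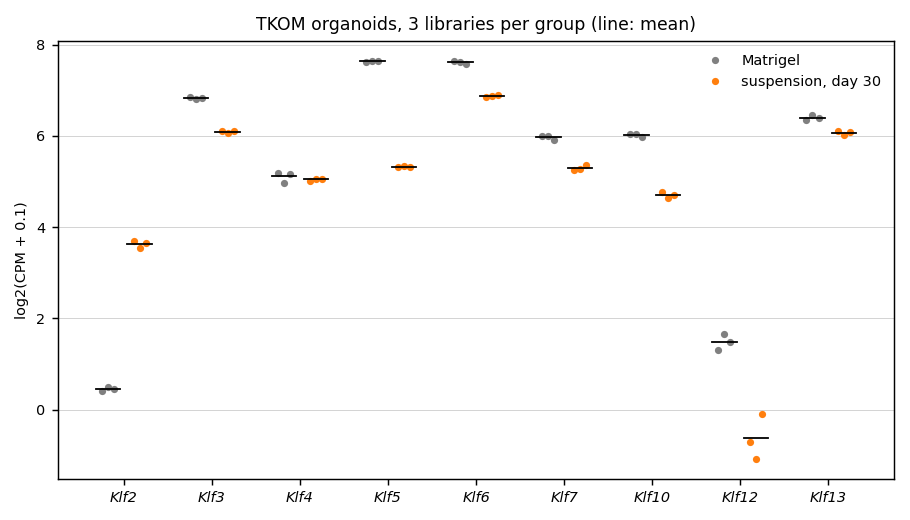
The 9 members in TKOM organoids in Matrigel (grey) and in suspension at day 30 (orange); the vertical axis is log2 of CPM plus 0.1, points are libraries and lines are group means. Klf2 is the only gene whose suspension libraries lie above those in Matrigel, and Klf5 and Klf12 show the widest falls.

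Among the other Kruppel-like and SP factor genes, 17 were listed and 14 had a line in at least 1 table. In PRAD with COMBO at day 42, 5 of the 12 tested rose and 5 fell against DMSO, where 41.2% of all genes rose and 43.3% fell, with a median of 0.02 against -0.03 for all genes. Klf8, which like Klf3 and Klf12 binds CtBP, rose from 0.231, 0.350 and 0.267 to 9.00, 7.50 and 7.13 CPM (4.79 ± 0.32, adjusted p = 1.51e-17). Its DMSO level lay near the floor, in libraries of 24166489 to 28275670 counts, so the size of this rise rests on few counts. For the same reason the adjusted p value of this Klf8 rise is not read as support. Klf9, a target of the glucocorticoid receptor, fell from 27.3, 30.2 and 30.5 to 3.59, 2.92 and 2.82 CPM (-3.23 ± 0.10, adjusted p = 9.67e-30), and Sp6 fell by 3.51 ± 0.32 (SE, adjusted p = 2.59e-13). Both Klf8 and Klf9 moved without overlap. In TKO with COMBO, Klf8 rose by 5.92 ± 0.27 (SE, adjusted p = 2.89e-23) and Klf9 fell by 3.51 ± 0.07 (SE, adjusted p = 5.38e-37), where 4 of 13 rose and 6 fell, beside 46.2% and 41% of all genes. The Klf8 rise in TKO is given without its DMSO level. Its size is not read as a result, nor its adjusted p value as support. In suspension 1 of 12 rose and 8 fell, beside 38.3% and 38.9% of all genes, led by Sp8 (-2.61 ± 0.07, adjusted p = 1.26e-15) and Klf8 (-2.39 ± 0.37, adjusted p = 1.36e-05).

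Of the 6 corepressor genes listed, 3 rose and 2 fell in PRAD with COMBO at day 42, with a median of 0.07, where 41.2% of all genes rose and 43.3% fell. Ctbp1 rose from 158 to 309 CPM (0.97 ± 0.03, adjusted p = 2.46e-27) and Ctbp2 fell from 76.4 to 35.4 CPM (-1.11 ± 0.05, adjusted p = 5.54e-23), means of 3 libraries. The SIN3A-associated deacetylase gene Hdac2 rose by 0.64 ± 0.04 (SE, adjusted p = 1.81e-17). In the genotype table with COMBO, Ctbp2 fell in WT (-0.80 ± 0.03, adjusted p = 1.89e-24), PtP (-0.67 ± 0.03, adjusted p = 1.16e-21) and TKO (-0.96 ± 0.03, adjusted p = 1.16e-27), where 2, 0 and 3 of 6 rose and 4, 6 and 2 fell. The shares of all genes that rose were 44.9%, 44.8% and 46.2%, and 40.8%, 40.2% and 41% fell.

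Among 7 upstream regulators, 4 rose and 2 fell at day 42 of COMBO, beside 41.2% and 43.3% of all genes. Mef2c, a factor downstream of the MEK5 and ERK5 kinases that induce Klf2 in endothelium, rose from 0.861 to 31.9 CPM (5.21 ± 0.17, adjusted p = 1.55e-28). Wwp1, whose product is a ubiquitin ligase for KLF5, fell by 1.97 ± 0.04 (SE, adjusted p = 1.90e-36). Both kept these directions in the mean of the NEPC lines, at 5.43 ± 0.16 (SE, adjusted p = 8.75e-31) and -2.39 ± 0.03 (SE, adjusted p = 1.69e-44) against the same DMSO libraries. With WT COMBO 3 of 7 rose and 1 fell, beside 44.9% and 40.8% of all genes, and Wwp1 rose slightly (0.13 ± 0.03, adjusted p = 3.73e-04). The balance was the other way in the other genotypes. In PtP with COMBO 1 rose and 4 fell, beside 44.8% and 40.2% of all genes. In TKO with COMBO 2 rose and 4 fell, beside 46.2% and 41% of all genes.

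Target genes known from textbooks were followed as a list. It was chosen with earlier results of these data known, so its counts and medians are descriptions and not an independent check. Of 10 listed, 9 were tested in PRAD, and 1 rose and 8 fell, where 43.3% of all genes fell, at day 42 of COMBO, with a median of -3.46 against -0.03 for all genes. The cyclin gene Ccnd1, which KLF5 activates, fell from 917, 936 and 935 to 1.33, 0.603 and 0.499 CPM (-10.14 ± 0.07, adjusted p = 1.63e-53). Its day 42 level was low, so the size of that fall rests on few counts. Ccnd1 also fell with COMBO in WT (-8.21 ± 0.05, adjusted p = 3.99e-55), PtP (-6.53 ± 0.04, adjusted p = 6.84e-53) and TKO (-7.46 ± 0.05, adjusted p = 3.13e-54). Klf5 itself rose in WT with COMBO (log2 fold change 0.41) and fell in PtP and TKO. A link between the levels of Klf5 and Ccnd1 was not tested. Ccl5, the gene that KLF13 activates in T cells, was at 1.15 CPM with DMSO and 0.0346 CPM at day 42. Tfap2a, the gene that KLF12 represses, is given for that link and was singled out after its values were seen; its means were 48.2 CPM with DMSO, 59.1 CPM at day 42 of COMBO and 156, 153 and 236 CPM in NEPC-1, NEPC-2 and NEPC-3. In suspension 0 of the 7 targets tested rose and 6 fell, beside 38.3% and 38.9% of all genes, Cdkn1a by -2.43 ± 0.05 (SE, adjusted p = 9.44e-18) among them.

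Over the 12 group means of the PRAD and NEPC table, Klf3, Klf5 and Klf10 had like patterns. The Pearson correlation of log2 CPM was 0.956 between Klf5 and Klf10, 0.945 between Klf3 and Klf5 and 0.940 between Klf3 and Klf10. Klf12 and Klf13 correlated at 0.882, and Klf12 correlated with Klf10 at -0.851 and with Klf3 at -0.794. Over the 9 group means of the genotype table Klf6 and Klf13 correlated at 0.934 and Klf2 and Klf12 at -0.900. These correlations are descriptions, since the groups share agents and genotypes.

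Searched among 5377 or 5378 genes with a mean of at least 5 CPM and an SD of log2 of at least 0.5, the 3 genes whose pattern over the 12 groups was most like that of Klf12 were Cryba2 (r = 0.994), Syt2 (0.991) and Soga3 (0.991), and the same pairs gave 0.941, 0.960 and 0.954 over the 9 genotype groups. For Klf4 they were Clic3 (0.959), Rnf181 (0.940) and Erp44 (0.937), with 0.958, 0.347 and 0.826 over the genotype groups. For Klf3 they were Pafah2 (0.993), Cat (0.993) and Pdgfb (0.992), and for Klf5 Fam83b (0.992), Tmprss2 (0.990) and Klhl5 (0.990), all between 0.410 and 0.872 over the genotype groups. Klf10 was most like Stt3a (0.994), Arpc1b (0.988) and Mfsd5 (0.987), and Klf6 most like Shmt2 (0.907), Slc25a1 (0.902) and Ndrg2 (0.900), and these 6 held 0.687 or more over the genotype groups. For Klf13 and for Klf7 all 3 genes correlated negatively over the genotype groups. Among them, Mctp2 (0.976 with Klf13) gave -0.641 and Arhgef38 (0.851 with Klf7) gave -0.636. Klf2 was most like Hsd17b11 (0.972), Metrnl (0.955) and Paqr8 (0.950), with -0.128, 0.618 and 0.785 over the genotype groups.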

How the data were processed

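Poly(A) RNA of 69 libraries was sequenced, and the deposited tables hold expected counts per gene, 1 table per experiment; 40.8% to 46.3% of all values were not whole numbers (tolerance 0.01). The build was mm10, per the submitters' processing notes, and the aligner, counter and annotation were not given in the sources used here. Expected counts were rounded to whole numbers. Lines with no gene name held at most 0.0115% of a library and were left out, and lines that shared a name were summed. No column lacked a sample.

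Each table was fitted separately in edgeR 4.0.16 (limma 3.58.1, R 4.3.3) with TMM scaling, the filterByExpr filter at its minimum count of 10, all groups of the table in 1 fit, the quasi-likelihood F-test, two-sided, and Benjamini-Hochberg adjustment over all genes kept, 15733 (TKOM), 18483 (PRAD and NEPC) and 18430 (genotype). Values after ± on a log2 fold change are standard errors. CPM used the TMM-scaled library sizes, and CPM per kb the exon bases of GENCODE vM21. The code was tested on simulated data. In all, 34 comparisons were made; the COMBO effects between genotypes were added after the data were seen.

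Alternatives were DESeq2 1.42.0, its size factors in edgeR, no filter, a replicate block, leaving out each replicate number, leaving out PRAD YAPi replicate 1 (the deepest of its table) and, added after the data were seen, leaving out PRAD NOTCHi replicate 2. The members and lists were chosen with earlier results of these data known. All 9 members were named in every comparison, and of each other list up to the 3 genes with the largest log2 fold change that passed. The genes with like patterns were the 3 with the highest correlation of log2 CPM (prior count 2) over the 12 groups of the PRAD and NEPC table, without predicted gene names.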

Additional observations from a re-analysis of the deposited data

Results flagged for a closer look

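The effect of treatment differed between genotypes in 31 tested cases (edgeR's quasi-likelihood test of the difference, adjusted p under 0.05), each given as the log2 change with treatment in 1 genotype minus that in the other. The DMSO libraries of a genotype serve both treatments, so the cases are not independent. With YAPi_NOTCHi, the change in PtP minus that in WT was -1.04 for Klf6, 1.65 for Klf4, -0.92 for Klf5, -0.30 for Klf3, 0.65 for Klf10, -0.23 for Klf13 and 2.77 for Klf12. In TKO minus PtP it was 0.45 for Klf6, 0.92 for Klf4, -0.54 for Klf5, 0.41 for Klf7, -0.84 for Klf3, 0.34 for Klf13 and -0.84 for Klf2. With COMBO, the change in PtP minus that in WT was -1.05 for Klf6, 1.13 for Klf4, -1.16 for Klf5, -0.81 for Klf7, -0.65 for Klf3, 1.03 for Klf10, -0.62 for Klf13, -0.98 for Klf2 and 2.44 for Klf12. In TKO minus PtP it was 0.44 for Klf6, 0.85 for Klf4, -0.53 for Klf5, 0.57 for Klf7, -1.41 for Klf3, -0.36 for Klf10, 0.67 for Klf13 and -0.67 for Klf2. Klf3 and Klf5 were negative and Klf4 positive in all 4 of these contrasts. Klf4 fell less in PtP than in WT and less in TKO than in PtP, and its level with DMSO was in turn lower. The 2 Klf12 values rest on DMSO groups of 6 counts in PtP and 22 in WT and are given without being read as results.

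In 17 further cases every library of a genotype group moved in the opposite direction to the PRAD libraries under the same treatment label at day 8. The 2 tables were fitted separately and this difference was not tested. The share of all genes with such opposite moves is not given, so the number of cases is not read as a result about the members. In WT the log2 change with YAPi_NOTCHi was -2.03 for Klf2, 0.54 for Klf5, -0.92 for Klf7 and -1.11 for Klf13. With COMBO in WT it was 0.43 for Klf3, 0.41 for Klf5 and -0.74 for Klf13. In PtP the log2 change with YAPi_NOTCHi was -2.01 for Klf2, -0.81 for Klf7 and -1.34 for Klf13. With COMBO in PtP it was -0.71 for Klf7 and -1.35 for Klf13. In TKO the log2 change with YAPi_NOTCHi was -2.86 for Klf2, -0.40 for Klf7 and -1.0006 for Klf13. With COMBO in TKO it was -0.14 for Klf7 and -0.69 for Klf13. This Klf7 change did not pass in DESeq2 (-0.07, adjusted p = 0.200) or with the DESeq2 size factors in edgeR (-0.07, adjusted p = 0.113). In PRAD, Klf13 rose by 0.73 with YAPi_NOTCHi and 0.66 with COMBO, and Klf7 by 0.28 and 0.35. Klf2 stood at 0.51 in PRAD with YAPi_NOTCHi and did not pass there.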

How the results depend on the processing

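Of 306 pairs of a member and a comparison, 254 passed, and 240 of these kept their call and their sign under every alternative run; none changed sign. Of the calls, 4 were lost and 4 gained in DESeq2, 2 lost and 1 gained with its size factors in edgeR, 1 and 1 with no filter, 6 and 1 without replicate 1, 7 and 2 without replicate 2, and 9 and 1 without replicate 3. Leaving out PRAD YAPi replicate 1 changed no call, and leaving out NOTCHi replicate 2 lost Klf4 with NOTCHi and gained Klf13 in the ARi-by-NOTCHi term; the number of members that passed with NOTCHi was then 6 in place of 7. Beyond those given with the results and the low-count calls of Klf12, Klf3 in NEPC-3 against NEPC-2 was lost without replicate 3 (0.09, adjusted p = 0.0833), Klf7 in NEPC-2 against NEPC-1 was gained without it (0.18, adjusted p = 0.0416), Klf5 with ARi was gained in DESeq2 (0.06, adjusted p = 0.0271) and Klf10 with COMBO in PtP was gained without replicate 1 (-0.10, adjusted p = 0.03996). No scaling moved the median of all genes by over 0.1 (log2). Among the pairs that passed, the folds that moved by over 1.5 times under an alternative were all of Klf12, and the cause was not tested.

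The replicate numbers did not pair the libraries: no pair of libraries with the same number had deviations from their group means that correlated over 0.1, and the best match had the same number for 0 of 6, 11 of 36 and 13 of 27 libraries. With the replicate block, 3 calls did not pass, Klf4 with NOTCHi (-0.16, adjusted p = 0.0853), Klf12 in NEPC-3 against NEPC-1 (0.16, adjusted p = 0.0535) and Klf7 with COMBO in WT (0.10, adjusted p = 0.0522), and none was gained. Klf12 held 1 to 8 counts per library in the DMSO, ARi and NOTCHi groups, which limits every Klf12 fold that rests on them.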
